A study of Mus musculus with 2 samples.

Results

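The genes examined here carry the interferon signal from the cell surface to the nucleus. They are the receptor chains Ifnar1 and Ifnar2, the kinases Jak1 and Tyk2, the transcription factor Stat2, and the interferon regulatory factors Irf1, Irf3, Irf7 and Irf9. The set is given by gene symbols and not by a cutoff on measured values, but it was chosen with earlier results of these data known. A probe belonged to it where its RefSeq accession carries 1 of these symbols in the mouse annotation. All 9 genes were found, with 12 probes of 39417 on the array, and the 9 genes are among 20653 that could be named. RNA came from MIN6 cells, a mouse insulinoma line of C57Bl/6 origin at passages 15 to 20 that keeps many features of pancreatic beta cells. The group labelled FTO had been transduced with lentivirus made from PLVX-IRES-ZsGreen-mFTO, which carries mouse FTO and the green reporter ZsGreen. The control group had received virus from PLVX-IRES-ZsGreen, the same vector without FTO, so both groups carried lentiviral sequence and ZsGreen, and green fluorescence had been inspected at 48 h. There was 1 one-color Agilent array per group, both on the same slide and in the same scan, and no difference below has a replicate check.

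Interferons are secreted proteins that cells release on sensing viral nucleic acid. Type I interferon binds Ifnar1 and Ifnar2, whose attached kinases Tyk2 and Jak1 then phosphorylate STAT proteins, Stat2 among them. With Irf9, these STATs form ISGF3, a complex that binds the interferon-stimulated response element (ISRE) and switches on the interferon-stimulated genes. Irf3 and Irf7 act before this loop, since they turn on the interferon genes themselves once a sensor has fired, and Irf7 is in turn induced by interferon. Interferon signaling in beta cells is known for raising antigen presentation and has been studied in autoimmune diabetes.

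The signal of the overexpressed gene differed little between the arrays. The single Fto probe had a signal of 7301 on the FTO array and 5179 on the control array, which left a normalized log2 difference of 0.06 beside a spot error of 0.20. Where this probe lies relative to the coding sequence carried by the vector is not given in the sources used here, so the probe may not detect the transgene and cannot check the labels. All 14 beta cell markers were well above background on both arrays. Of 9 immune markers on the array, 7 were well above background on the FTO array and 8 on the control array, with a median difference of -0.15 (-0.38 after scaling by the 75th percentile) and a summed signal of 6113 and 4374. Cd3e alone gave 3906 and 2388 of these sums, with a difference of 0.30, while 6 of the 8 tested markers were below 0. Of 8 fibroblast and endothelial markers, 6 and 7 were above background, with a median of -0.06 and a summed signal of 2446 and 1966. The FTO array was the brighter of the pair before normalization. A probe was well above background in 82% of cases on the FTO array and 84.9% on the control array.

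The sequences upstream of the genes give the setting for those whose differences are compared below. The table of RefSeq promoters (GRCm38.p6, 250 bases before to 50 after a gene's start) held 11 windows for the 9 genes, and each was searched on both strands for GAAA followed by any 2 bases and GAAA, the core of the ISRE, and for TTCNNNGAA, the gamma-activated site (GAS) that STAT dimers bind, which reads the same on either strand. The ISRE core occurred in 1 of 11 windows, that of Stat2, against 3.44% of 32851 windows in the table. The GAS letters were found in 3 of 11 windows, those of Irf1, Ifnar1 and Ifnar2, against 8.3% of all windows. The matched letters are in capitals. The first sequences are those of Stat2, which holds the ISRE core, and of Irf7, which had the largest difference and holds neither motif.
Stat2, chr10:128270248-128270547, plus strand: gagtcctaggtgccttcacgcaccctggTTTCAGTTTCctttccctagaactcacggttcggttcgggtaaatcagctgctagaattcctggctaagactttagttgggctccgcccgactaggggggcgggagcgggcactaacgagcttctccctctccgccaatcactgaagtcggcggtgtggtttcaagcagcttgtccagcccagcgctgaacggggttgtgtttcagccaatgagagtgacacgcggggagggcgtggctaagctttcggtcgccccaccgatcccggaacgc
Irf7, chr7:141266375-141266674, minus strand: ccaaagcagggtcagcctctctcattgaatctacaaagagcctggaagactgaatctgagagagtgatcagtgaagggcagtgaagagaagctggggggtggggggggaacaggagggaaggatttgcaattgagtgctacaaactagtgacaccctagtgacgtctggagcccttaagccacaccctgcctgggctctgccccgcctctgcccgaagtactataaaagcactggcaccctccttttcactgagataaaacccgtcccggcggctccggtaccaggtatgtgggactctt
The windows with the GAS letters are shown for comparison, and in Ifnar1 the match spans the start of the gene.
Irf1, chr11:53769764-53770063, plus strand: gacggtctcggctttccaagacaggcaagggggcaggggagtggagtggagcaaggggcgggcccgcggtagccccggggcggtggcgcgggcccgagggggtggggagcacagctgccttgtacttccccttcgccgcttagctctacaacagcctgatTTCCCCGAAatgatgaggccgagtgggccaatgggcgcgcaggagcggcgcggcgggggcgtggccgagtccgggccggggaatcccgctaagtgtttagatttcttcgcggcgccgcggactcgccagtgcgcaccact
Ifnar1, chr16:91484965-91485264, plus strand: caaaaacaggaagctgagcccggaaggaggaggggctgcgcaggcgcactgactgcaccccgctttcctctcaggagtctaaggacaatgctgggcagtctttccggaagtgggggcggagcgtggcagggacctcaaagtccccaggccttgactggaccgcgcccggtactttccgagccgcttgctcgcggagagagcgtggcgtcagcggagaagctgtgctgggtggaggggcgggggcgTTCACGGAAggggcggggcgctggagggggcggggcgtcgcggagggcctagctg
Ifnar2, chr16:91372533-91372832, plus strand: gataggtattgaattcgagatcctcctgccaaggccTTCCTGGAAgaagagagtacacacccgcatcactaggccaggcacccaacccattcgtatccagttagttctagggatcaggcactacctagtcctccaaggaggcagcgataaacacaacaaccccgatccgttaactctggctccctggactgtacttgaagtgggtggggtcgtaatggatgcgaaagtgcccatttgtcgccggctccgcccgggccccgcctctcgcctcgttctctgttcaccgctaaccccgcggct
A match to these letters is a description and was not tested as a binding site. In the Stat2 window the match is TTTCAGTTTC, the core read on the opposite strand, at bases 29 to 38 of 300. The windows of Irf3, Irf9, Jak1 and Tyk2 held neither motif, which says only that these letters are not in these 300 bases. This comparison did not cover all of the 18513 tested genes. In it, the 567 genes with the ISRE core in a window had a median log2 difference of 0.03, and the 14091 without it had a median of 0.01.

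Signals are those that Feature Extraction gives after background subtraction, in arbitrary units, and they are not normalized between arrays. The log2 differences are FTO minus control after quantile normalization over both arrays. Each carries a combined spot error from the Feature Extraction error model, which concerns the measurement of a spot and not the variation between cultures. For bright probes this estimate hardly varied, at 0.14 on each array for Irf7 and Tyk2 alike. It therefore acts as a nearly fixed limit and not as a spread measured for each probe. Repeated spots, described below, spread less at these signals. All 12 probes are printed once and were well above background on both arrays. Before normalization all 12 were brighter on the FTO array, by 1.01-fold to 1.66-fold with a median of 1.38-fold. The same was true of 86.2% of all tested genes, with a median of 1.29-fold, so brighter signals were not particular to these genes. The cause of the brighter signals was not tested. Among tested genes of mean log2 signal over 9, the median was 1.34-fold. The difference after normalization is therefore the value compared here.

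**Figure D1:**
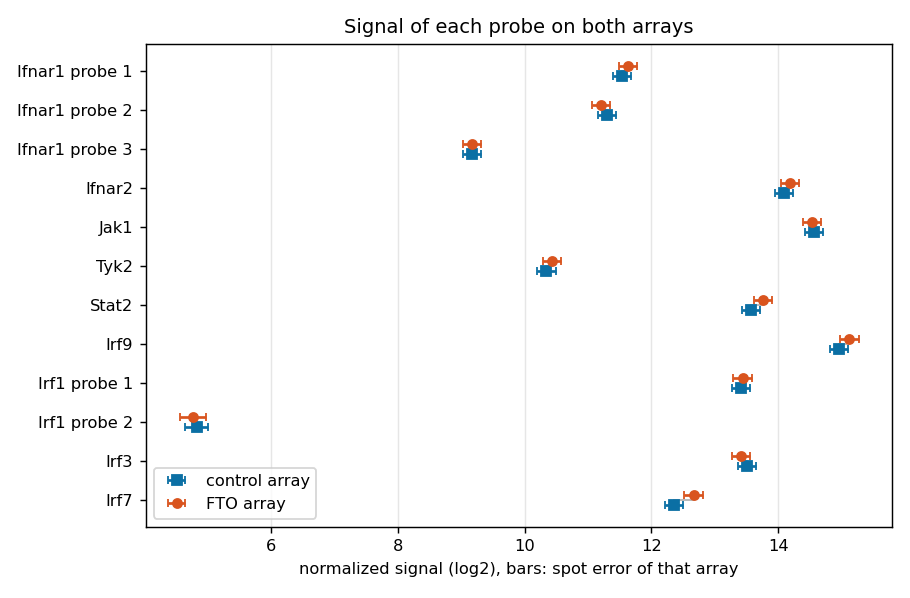
Normalized log2 signal (horizontal axis) of the 12 probes of the 9 genes on the FTO array (circles) and the control array (squares), with bars for the spot error of each array. The error bars of both arrays overlap for 11 probes, and only the bars of Irf7, at 12.66 on the FTO array and 12.35 on the control array, lie apart. Positions of different probes cannot be compared as levels.

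The receptor chains were close to equal on both arrays. Ifnar1, which binds Tyk2 inside the cell, had 3 probes with the same accession (NM_010508). The brightest had signals of 3653 on the FTO array and 2588 on the control array and a log2 difference of 0.10, the next had 2719 and 2196 and a difference of -0.09, and the dimmest had 651 and 511 and a difference of 0.00. The 3 probes lay on both sides of 0, with an SD of 0.09 between them and a spot error of 0.20 each. Their range of 0.19 is not unusual, since 29.9% of 2545 genes with at least 2 bright probes spanned as much. Ifnar2, the chain that carries Jak1 (NM_010509), had a single probe that read 21660 and 14944. Its difference of 0.09 is less than its spot error of 0.20.

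In the mouse annotation both receptor genes stand on chromosome 16 in a run of cytokine receptors, in the order Ifnar2, Il10rb, Ifnar1 and Ifngr2. Il10rb, a chain shared by the interleukin 10 and interferon lambda receptors, had a difference of 0.06, and Ifngr2, the second chain of the interferon gamma receptor, of -0.07, each with a spot error of 0.20. The probe of Ifngr2 lies in a block that lost signal on either array, and such blocks of the FTO array are described with Irf1 below. None of these 4 neighboring genes differed by more than its spot error.

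The kinases showed no difference beyond the error either. Jak1 (NM_146145), the partner of Ifnar2 and of many other cytokine receptors, had signals of 27513 on the FTO array and 20819 on the control array. Normalized, it differed by -0.04, with a spot error of 0.20, and it took the opposite sign after cyclic loess, at 0.01, and after normexp background correction, at 0.01. Tyk2 (NM_018793), the partner of Ifnar1, had signals of 1579 and 1136 and a difference of 0.09 with the same error.

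Of the ISGF3 parts, both members had a higher normalized signal on the FTO array, by about the size of the spot error. Stat2 (NM_019963), which supplies ISGF3 with a strong activation domain, had signals of 16109 on the FTO array and 10409 on the control array. Its log2 difference of 0.19, a 1.14-fold difference, fell just short of its spot error of 0.20. Irf9 (NM_001159417), the subunit that gives ISGF3 its preference for the ISRE, gave 41294 and 27348, which left a log2 difference of 0.16 with the same error. Both passed the spot error after cyclic loess, at 0.22 for Stat2 and 0.21 for Irf9, while after normexp Irf9 was at 0.25 and Stat2 at 0.16. Stat2 also passed it, barely, at 0.20 after scaling by the 75th percentile.

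The interferon regulatory factors other than Irf9 did not move together. Irf7 (NM_016850), the factor that amplifies interferon production once it has been induced, had the largest difference of the 9 genes. Its signals were 7524 on the FTO array and 4524 on the control array, and the log2 difference of 0.31, or 1.24-fold, exceeded the spot error of 0.20. It was the only member past its spot error, and it lay between 0.30 and 0.32 under every other way of processing that was tried. Irf3 (NM_016849), which is present before any stimulus and is switched on by phosphorylation, had signals of 12624 and 10003 and a difference of -0.10 with an error of 0.20. Irf3 was below 0 under all alternatives, between -0.10 and -0.06, always within its error. Both factors share the task of inducing type I interferon, and they lay at opposite ends of the set. The difference between them was not tested.

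Irf1 (NM_008390), a factor induced strongly by interferon gamma, had a bright probe with signals of 12869 on the FTO array and 9357 on the control array and a log2 difference of 0.02 with an error of 0.20. This probe lies in an area of the FTO array, between rows 229 and 456 and columns 1 and 34, where probes printed 10 times lost signal. In the 5 blocks of this area, 25.5% of repeated spots of low to middle signal fell over 0.5 short of the median for the same probe, against 2.33% elsewhere, and its part in the Irf1 value was not tested. A second probe with another accession (NM_001159393) had signals of 27.9 and 27.7, near background, and a difference of -0.06 with an error of 0.27. That dim probe moved to -0.41 after scaling by the 75th percentile and to 0.07 after normexp. No other probe of the 9 genes lies in the area.

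**Figure D2:**
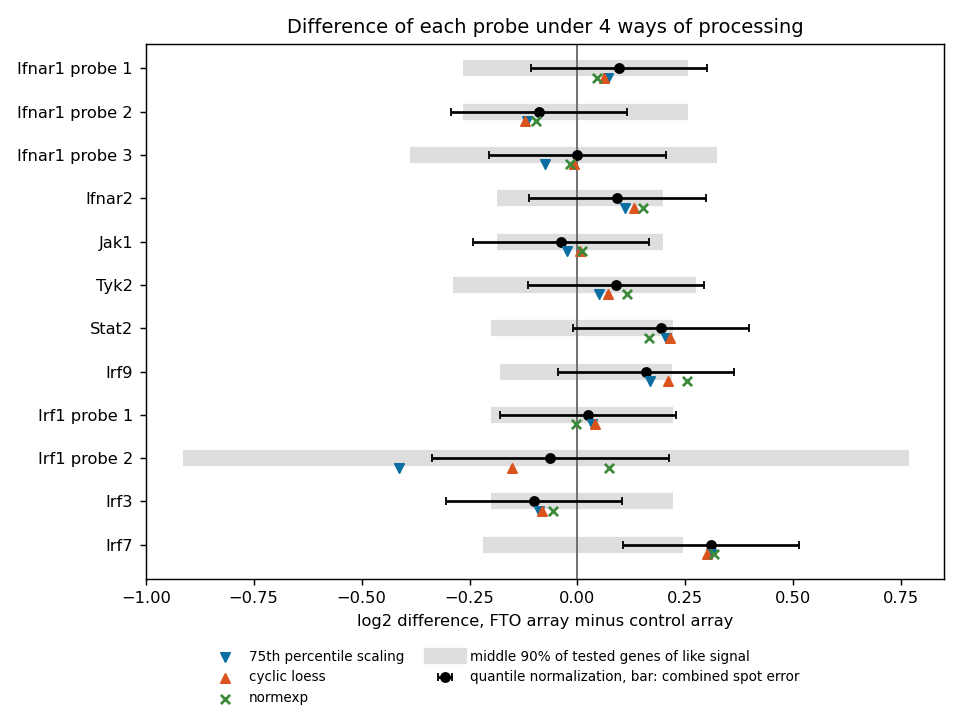
Log2 difference (FTO minus control, horizontal axis) of the 12 probes, with quantile normalization as circles, the combined spot error as bars, and 3 other ways of processing as small symbols. Gray bands hold the middle 90% of tested genes in the same log2 unit of signal, with quantile normalization. Only Irf7, at 0.31 against an upper edge of 0.24, lies outside its band with quantile normalization. The normexp value of Irf9, 0.25, lies past this edge of 0.22, but no band was made for normexp.

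As a set, 7 of the 9 genes were above 0 and 2 below, taking the brightest probe of each. Over the 18513 genes tested, meaning those with a probe that cleared background on the FTO array, the control array or both, 51.6% were above 0. Scaling by the 75th percentile left the count at 7 of 9 while the share of all genes fell to 38.8%, with a median of -0.06. Among the 9991 genes whose mean log2 signal exceeded 10, a range that holds all 9 members, 53.6% were above 0. The median log2 difference of the 9 genes was 0.09, between -0.10 for Irf3 and 0.31 for Irf7, against 0.01 for all genes. None of the 9 differed by more than 2-fold, while 2.68% of all genes did, 1.09% higher and 1.6% lower. Of the 9, 1 was higher by more than its spot error and none was lower, where 14.3% of all genes were higher and 13.4% lower by this measure. A share of 1 in 9 lies near that background and near the 7.63% of bright genes that were higher. By single probes, 7 of the 12 were above 0 (51.3% of all tested probes), 1 was higher by more than its spot error (16.5%) and none passed 2-fold (3.48%). Counting any probe of a gene, none of the 9 passed 2-fold, against 3.21% of all genes. The sign count depends on small values, since it was between 6 and 8 under the alternatives.

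The spread between repeated spots gives a second measure of error, which leaves out what Feature Extraction assumes about large signals. From probes printed 10 times, the SD expected of a difference between single spots was 0.07 for a log2 signal between 12 and 13, where Irf7 lies, and 0.08 between 13 and 14, where Stat2 lies. Irf7 and Stat2 were the 2 members higher by more than 2 of these SDs, and none was lower by as much. Of all tested genes, 12.6% were higher by that measure, and of the 9991 bright genes 12.8% were. This limit was set after the values had been seen. Irf9, at 0.16, lay under its limit, and its SD of 0.09 rests on 8 repeated probes.

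**Figure D3:**
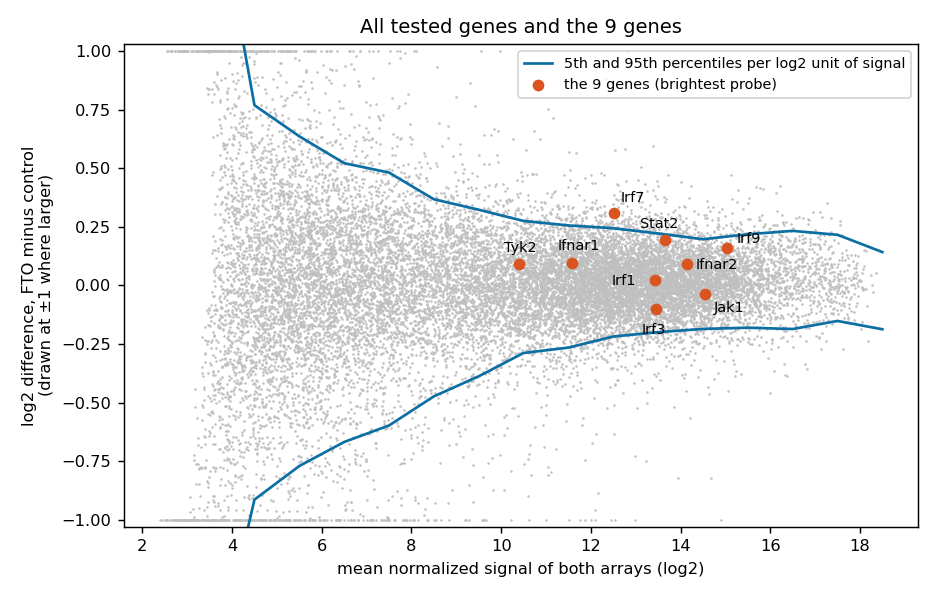
Log2 difference (vertical axis) against mean normalized log2 signal of both arrays (horizontal axis) for 18513 tested genes, with values beyond 1 in either direction drawn at the edge, and the 9 genes in orange. Lines mark percentiles 5 and 95 in each log2 unit of signal, and all 9 genes lie among the brighter genes, where these lines stand closest together, with Irf7 alone outside them.

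Set against the genes around them, the 9 had a median between those of the interferon ligands and the interferon-stimulated genes. The other lists below had medians in the same range, and single genes of the lists overlapped. Of 21 ligands listed, 16 have a probe and 14 were tested, with a median log2 difference of -0.06 (-0.23 after scaling by the 75th percentile), and 3 were higher and 5 lower by more than their spot error. Their probes were dim, with a median log2 signal of 7.03. The highest was Ifna5, with signals of 275 on the FTO array and 121 on the control array and a difference of 0.95 with an error of 0.21, and the lowest was Ifna16, with 88.7 and 127 and a difference of -0.70 with the same error. Interferon alpha genes are near-identical copies, so their probes may share targets and the value of any 1 of them is uncertain. Ifnb1, the interferon that Irf3 and Irf7 induce first, was picked out after its value had been seen. It had signals of 84.8 and 45.9 and a difference of 0.74 with an error of 0.22, which was 0.46 after scaling by the 75th percentile and 0.42 after normexp. Dim genes spread more widely than these errors. For a log2 signal between 5 and 6, where Ifnb1 lies, the repeat SD was 0.27 and percentile 95 of tested genes was 0.64. Between 6 and 7, for Ifna16, the SD was 0.26 and percentile 5 was -0.67. Between 7 and 8, for Ifna5, the SD was 0.12 and percentile 95 was 0.48.

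Among 17 other receptors, kinases, STATs and IRFs, all tested, the median was 0.06, with 2 higher and 3 lower by more than their error. This median took the opposite sign after scaling by the 75th percentile, at -0.09, and was -0.01 after normexp. Irf8, a factor of blood cells, had signals of 10.8 and 16.3 and was at least 1.25-fold lower on the FTO array, where it was not well above background, so its rank in the list is unknown. Of the genes measured on both arrays the lowest was Jak2, a kinase of many cytokine receptors, with signals of 6277 and 5977 and a difference of -0.36 with an error of 0.20. Among 12 brakes on the pathway, such as the SOCS proteins, 3 were higher and 1 was lower, with a median of -0.03. Usp18, which binds Ifnar2 and shuts the receptor down, was the highest, with signals of 22754 and 13182 and a difference of 0.34. Pias4, a ligase that restrains STATs, was the lowest at -0.41, with signals of 135 and 154, in a block that lost signal on either array.

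Among 18 nucleic acid sensors and adaptors, 6 were higher and 2 lower by more than their error, with a median of 0.07. The extremes were Tlr3, a sensor of double-stranded RNA, with signals of 425 and 232 and a difference of 0.57, and Tlr9, a sensor of unmethylated DNA, with 762 and 1077 and a difference of -0.87. The Tlr9 probe is 1 of 7 sensor probes in blocks that lost signal on either array. Leaving these blocks out removed those 7 sensors, and the median of the remaining sensors was 0.21. The 46 interferon-stimulated genes listed gave 42 tested genes, of which 29 were higher by more than their error and none was lower. Of all tested genes, 14.3% were higher and 13.4% lower by this measure. Like the other lists, this one was chosen with earlier results of these data known, so its count is a description only. The median of the 42 was 0.32, between -0.20 for Sp100, a nuclear body protein, and 0.88 for Ifi44, a gene of unsettled function. None of the genes in these lists passed 2-fold. Some genes, such as Usp18, stand in 2 of the lists, so the counts are not independent.

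**Figure D4:**
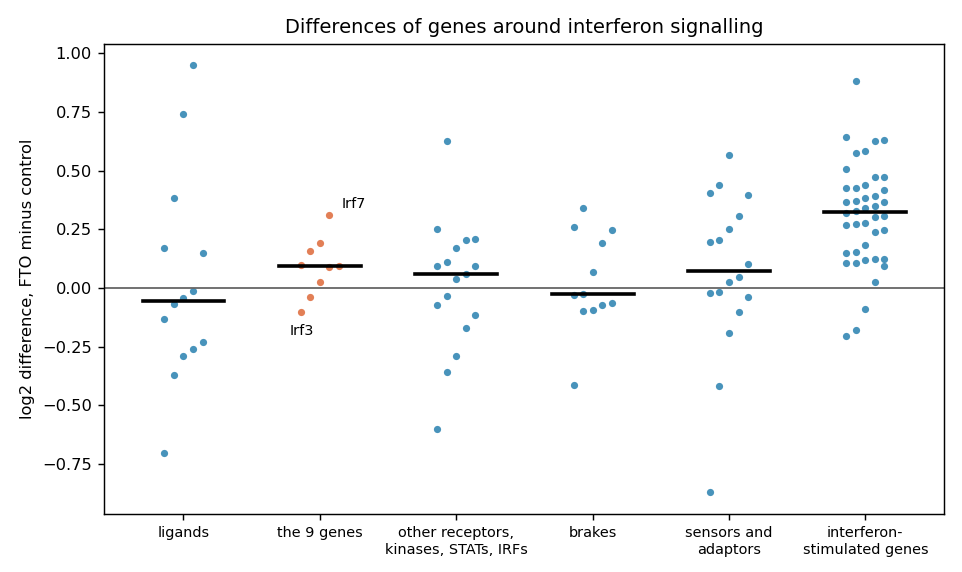
Log2 difference (FTO minus control, vertical axis) of single genes, each by its brightest probe, for the 9 genes (orange) and 5 lists around them (blue), with a black line at the median of each list. The medians are 0.09 for the 9 genes, -0.06 for the ligands, 0.06 for other receptors, kinases, STATs and IRFs, -0.03 for the brakes, 0.07 for sensors and adaptors, and 0.32 for interferon-stimulated genes.

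The highest values among the 9 genes were those of Irf7, Stat2 and Irf9, at 0.31, 0.19 and 0.16, and the other 6 lay between -0.10 and 0.10. The interferon-stimulated genes were listed with earlier results of these data known, and none is 1 of the 9. Against their median of 0.32, Stat2 and Irf9 were lower under every alternative. Irf7 was not, since it stood at 0.32 against 0.31 after normexp and without the blocks that lost signal, and at 0.31 against 0.30 with the mean over probes. With 1 array per group, an effect of FTO, the dose of virus and the state of each culture cannot be told apart in any of these values.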

How the data were processed

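Total RNA of MIN6 cells was labeled with Cy3 and hybridized to Agilent mouse arrays, 1 per group, and groups were taken from the sample labels. The authors deposited the intensity of each spot from Agilent Feature Extraction 11.0.1.1, with local background and spatial trend removed and no normalization between arrays. They also deposited log2 values of 33870 probes, quantile normalized in GeneSpring GX per the methods, which served as an alternative. The array design names mm9, so positions are given only for RefSeq promoters of GRCm38.p6.

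Control spots and outlier spots (148 on the FTO array, 141 on the control array) were left out, and no spot was saturated. Repeated spots were averaged as log2 values, and limma 3.58.1 (R 4.3.3) gave the quantile normalization, with Python 3.11.15, pandas 2.3.3 and matplotlib 3.10.9 for the rest. Of 39417 probes, 27224 were named by unversioned accession. Probes that Feature Extraction marked well above background on either array were kept, and the brightest tested probe stood for its gene. With 1 array per group no test was possible, the number of arrays limits the precision, and values are given with the combined spot error. A probe well above background on 1 array only gives a bound, its bright signal over the higher of the dim signal and the lowest signal well above background on the dim array. The steps were tested on simulated data.

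The named genes are the 9 members, Fto, and the highest, the lowest and any 2-fold gene of each pathway list. Beyond this rule, Ifnb1 was named after its value had been seen, and Il10rb and Ifngr2 as neighbors of the receptor genes. Markers are given as counts, medians and summed signals, with Cd3e the only marker named, and not every gene that the rule names is reported here. The members, the lists and the blocks of lost signal were chosen with earlier results of these data known. Protein sequences were not used here.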

Additional observations from a re-analysis of the deposited data

How the results depend on the processing

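The differences of all 9 genes and the medians of the 5 pathway lists moved by less than a spot error under the 9 alternatives, which were 75th percentile scaling, cyclic loess, normexp with an offset of 50, a floor of 5, 2 other background filters, the mean over probes, leaving out the blocks of lost signal, and the authors' value table. None of the 9 genes passed 2-fold under any of them. Of the marker lists, the median of the immune markers moved from -0.15 to -0.38 with 75th percentile scaling, and the other 2 moved by less than a spot error. Signs near 0 were not stable. The bright probe of Irf1 lay between -0.00 and 0.04, the mean of both probes was -0.02, and with the blocks left out Irf1 was represented by its dim probe, at -0.09. Jak1 lay between -0.04 and 0.01, and Ifnar1 fell to 0.00 with the mean over its probes. The number of genes higher by more than their spot error, 1 with quantile normalization, was 2 by the 75th percentile, 3 by cyclic loess and 2 by normexp, and also 2 with the limit of 2 repeat SDs, which was chosen after seeing the data. Scaling by the 75th percentile moved the median of all genes to -0.06 and the share of genes above 0 from 51.6% to 38.8%, while the median of the 9 genes was 0.07. Over all genes, 497 passed 2-fold by their brightest probe, against 55 with normexp, 218 when a probe had to clear background on both arrays, 891 with no filter and 298 with the blocks left out. For probes the count was 1177, against 132, 491, 2176 and 693 under the same settings. The causes were not tested. No result was recomputed without a replicate, since each group had 1 array. No paired analysis was possible because each group had 1 array and no test was run.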
